A study of Arabidopsis thaliana with 3 samples.

Results

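Transfer RNA genes were the members described here. They were all genes that the authors' annotation of binding sites typed as tRNA, and no score entered that choice. Of 1504 target genes, 65 were tRNA genes, 49 of them nuclear and 16 plastid. They held 77 of the 5673 binding sites, 56 in nuclear and 21 in plastid tRNA genes. The study mapped RNA crosslinked to TSN1, the Tudor staphylococcal nuclease of Arabidopsis thaliana, by iCLIP2, which reads the nucleotide at which reverse transcription stops at a crosslinked residue. There was 1 group with 3 replicates, made from seedlings that carried the transgene pTSN1::GFP:TSN1 in the wild-type Col-0 background, so that the tagged protein was driven by the TSN1 promoter. Plants grew for 14 days with 16 h of light per day, were irradiated at 254 nm with 2000 mJ/cm2 and were taken 10 h after lights on. Each replicate pooled 3 plates, about 3 g of mostly aerial tissue. No untagged, GFP-only or input sample was analysed here, so the level of background crosslinking is not known.

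Transfer RNAs carry amino acids to the ribosome and fold into a cloverleaf. Its parts, from the 5' end, are the acceptor stem, the D arm, the anticodon arm, a variable region and the T arm. In plants one set is transcribed in the nucleus, usually from many near-identical gene copies, and serves the cytosol, while the plastid genome encodes a set of its own. TSN proteins join repeated staphylococcal nuclease-like domains to a Tudor domain and are known in plants as cytoplasmic RNA-binding proteins that also join stress granules.

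The deposited values were 1 list of called peaks, each 1 nt wide, and 1 list of binding sites, each 5 nt wide, over the 3 replicates together. A score was given for each, and the score of a site equalled the highest called peak inside it for 5673 of 5673 sites. The score has no stated unit and was used only to rank and describe sites within these lists. No value belonged to a single replicate, so no spread between replicates, test or p-value could be given, and the depth is unknown. Intervals of shares are 95% Wilson intervals and intervals of medians are 95% binomial intervals of the ranks. Both describe counting over the list only, since genes are not replicates and copies of a tRNA gene share sequence. The 5 leaf mesophyll markers looked up, among them RBCS1A and LHCA1, were all targets, and of 8 root markers 1 was a target, the beta-glucosidase gene PYK10, against 5.02% of the 27529 annotated protein-coding genes.

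Sites in tRNA genes had high scores. The median score was 51.4 (interval 39.9 to 65.0) over the 77 tRNA sites, against 12.5 (12.3 to 12.7) over all sites. Nuclear tRNA sites had a median of 59.99 (40.997 to 73.6) and ranged from 3.96 to 708. Plastid tRNA sites had a median of 41.3 (15.1 to 57.01) and ranged from 4.18 to 163. The intervals of nuclear and plastid tRNA sites overlapped. Plastid tRNA sites also overlapped in their interval with plastid sites outside tRNA genes, which had a median of 15.4 (12.6 to 17.8, n = 150).

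Of the 77 tRNA sites 52 (67.5%, 56.5 to 76.9) were in the top 10 percent of scores, which by construction held 10.0% of all sites. For nuclear genes the count was 39 of 56 (69.6%) and for plastid genes 13 of 21 (61.9%). Among the 10 highest scores of the series 5 were tRNA sites, and among the 100 highest 20 were. A tRNA site held a median of 3 called peaks, against 2 for all sites. Few tRNA genes held several sites: 11 of 65 (16.9%, 9.72 to 27.8) had 2 or more, against 63.1% of all targets. A tRNA gene has room for few 5 nt sites, and gene length was not adjusted for. Within the spans of target tRNA genes, 233 of 467 called peaks (49.9%, 45.4 to 54.4) fell inside a site, against 17.2% of the 72935 called peaks of the series. Target genes hold a site by definition, and over all annotated tRNA spans, those without a site included, the count was 249 of 550 (45.3%, 41.2 to 49.5). It was 174 of 328 (53.0%) for nuclear and 59 of 139 (42.4%) for plastid targets.

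Positions within the genes were described by parts of the cloverleaf. The windows were chosen with earlier results of these data known, and no expected share was worked out for them. Site coordinates were set against the annotated gene spans and turned into standard tRNA numbers by gene length, without a sequence alignment. In these numbers the anticodon is 34 to 36 and the last encoded nucleotide is 73. All 77 sites lay inside an annotated tRNA span, and positions were counted along the strand of the site. The anticodon loop (32 to 38) held the centre of 49 of 77 sites (63.6%, 52.5 to 73.5), with 39 of 56 (69.6%, 56.7 to 80.1) in nuclear and 10 of 21 (47.6%, 28.3 to 67.6) in plastid genes. The variable region (44 to 48, or the long variable arm of serine and leucine tRNAs) held 12 sites, 8 nuclear and 4 plastid. The T loop (54 to 60) held 7 nuclear sites and no plastid site, and 0 of 21 allows a share of up to 14.3%. The D loop (13 to 22) held 4 sites, 2 nuclear and 2 plastid. A further plastid site was centred at 27 and 4 plastid sites lay in none of these windows. Past the gene's midpoint, on the 3' side, lay the centres of 27 of 77 sites (35.1%, 25.3 to 46.2). In a short tRNA gene the anticodon loop spans that midpoint.

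**Figure D1:**
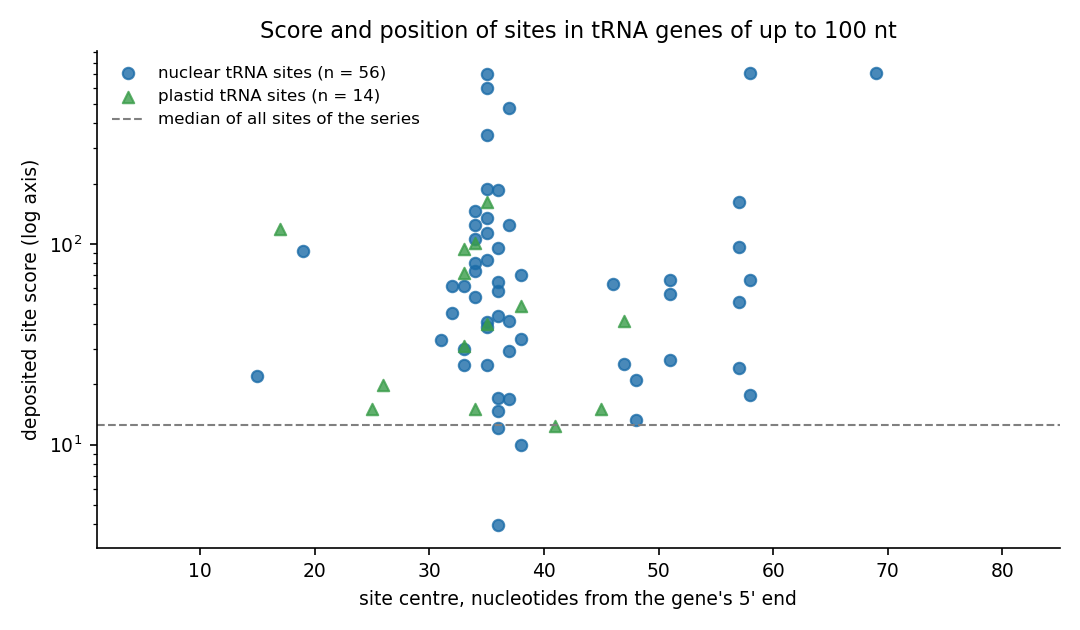
Deposited site score (vertical, log axis) against the centre of the site in nucleotides from the 5' end of the gene (horizontal) for tRNA genes of up to 100 nt. Points are single sites, circles nuclear (n = 56) and triangles plastid (n = 14). Sites gather near position 35, the nuclear sites at 57, 58 and 69 include those of the T loop, and most points lie above the median of all sites (12.5, dashed line).

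Scores overlapped between the regions. Nuclear sites of the anticodon loop had a median of 61.5 (38.5 to 95.9, n = 39), those of the T loop 65.8 (17.6 to 708, n = 7) and those of the variable region 41.3 (13.3 to 708, n = 8), with overlapping intervals. All 7 T loop sites were centred on the same nucleotide, number 58, in tRNAs for tyrosine, threonine (3 genes), glutamate, arginine and valine.

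Called peaks, which are more numerous than sites, gave a finer profile. Since numbers were set by gene length, neighbouring numbers from the D loop to the variable region are not told apart with certainty across genes. In nuclear tRNA genes of up to 75 nt, of which 57 had a called peak, 31 genes (54.4%) had one at number 37, the nucleotide 3' of the anticodon, and 26 to 28 genes had one at each of 34, 35 and 36. A second cluster was sharp. At number 58 a peak was called in 31 genes (54.4%) and at 59 in 14. At number 26, between the D and anticodon arms, 19 genes (33.3%) had a peak, and at number 9 there were 7 (12.3%). In the variable region number 47 was marked in 17 genes.

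Plastid genes of the same length class numbered 10, and their profile differed in where the peaks outside the anticodon loop fell. At number 35 a peak was called in 8 genes (80%) and at 34 in 7. Number 58 was marked in 0 of 10 genes and number 9 in 0 of 10, each of which allows a share of up to 30%. The last nucleotide before the gene, number 0, had a peak in 6 plastid genes, against 9 of the 57 nuclear genes. In the D loop number 16 was marked in 4.

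**Figure D2:**
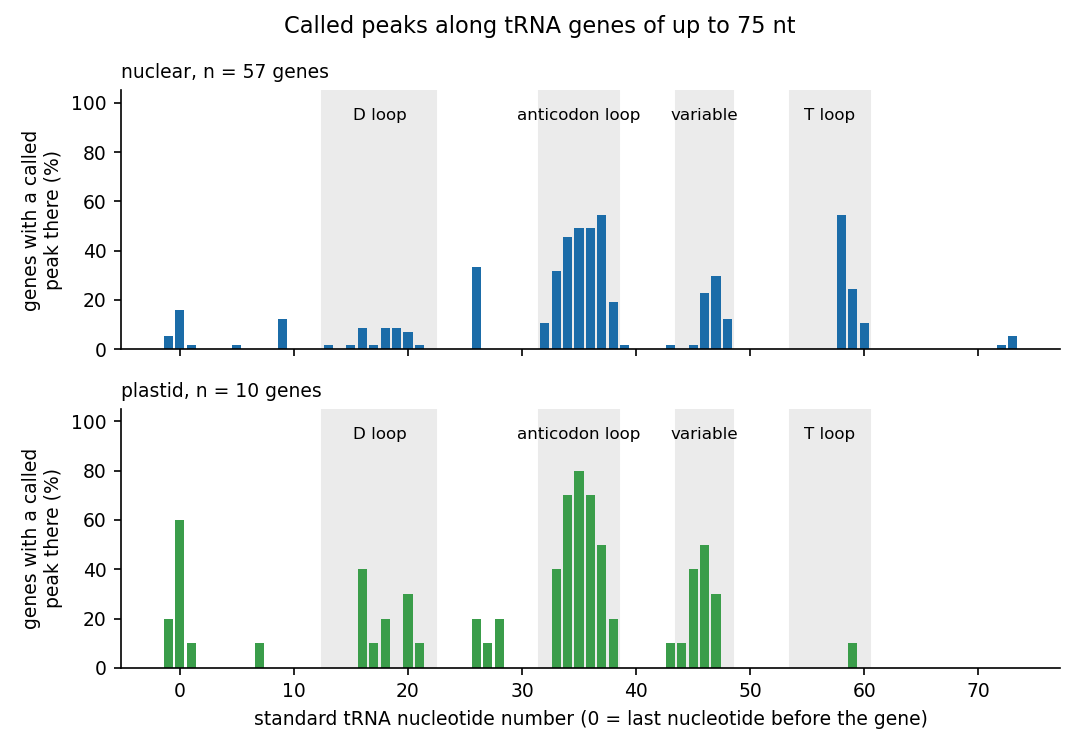
Percent of tRNA genes of up to 75 nt with a called peak (vertical) at each standard nucleotide number (horizontal, 0 is the last nucleotide before the gene), for 57 nuclear genes above and 10 plastid genes below; grey bands mark the loops and the variable region. Both compartments have a block of peaks at the anticodon loop. Nuclear genes have narrow columns at 26 (33.3%, against 20% of plastid genes) and at 58 (54.4%, against 0% of plastid genes). Numbers were set by gene length and not by sequence alignment.

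By gene, over all genes of up to 100 nt with a called peak, the anticodon loop was marked in 58 of 75 nuclear genes (77.3%, 66.7 to 85.3) and 14 of 14 plastid genes (78.5 to 100). The T loop was marked in 37 of 75 nuclear genes (49.3%, 38.3 to 60.4), against 1 of 14 plastid genes (7.14%, 1.27 to 31.5). At nucleotides 25 to 27 the counts were 32 of 75 nuclear and 4 of 14 plastid genes, in the D loop 12 of 75 and 7 of 14, and at 8 to 10 they were 7 of 75 and 0 of 14. The 5' end was marked in 9 of 75 nuclear genes (12.0%, 6.44 to 21.3) and 9 of 14 plastid genes (64.3%, 38.8 to 83.7). No test of these differences was made, since the files hold no value per replicate and gene copies that share sequence are not independent. Positions such as 9, 26 and 58 carry methylated bases in many nuclear-encoded tRNAs of eukaryotes, and such bases can stop reverse transcriptase, the event that the assay reads. The part of such stops at these or at other positions, those of the anticodon loop included, was not tested.

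The anticodon loop and the T loop were often marked in the same nuclear gene. Of the 75 nuclear genes 28 (37.3%, 27.3 to 48.6) had peaks in both, 30 in the anticodon loop without the T loop, 9 in the T loop without the anticodon loop, and 8 in neither. Nuclear tyrosine genes were given no number for most of the anticodon loop, so peaks there could be missed in these counts and those by gene above. In the 28 genes with both, the highest T loop peak was a median of 0.808 times the highest anticodon loop peak (0.764 to 1.00), and the T loop was the higher in 9. The lowest ratio, 0.374, was in AT5G10525, an arginine tRNA gene. The highest, 126, was in AT2G03700, a threonine tRNA gene with 24.1 in the T loop and 0.192 in the anticodon loop.

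The arginine tRNA genes with the anticodon TCT were the family with the highest scores among those with several target genes. All 5 nuclear target genes of this anticodon had 1 site, each centred at gene position 35, the middle of the anticodon. The scores were 707 in AT2G36600 (chromosome 2, 15346192 to 15346196, plus strand), 597 in AT3G10035 (chromosome 3, 3096248 to 3096252, plus strand), 350 in AT2G45020 (chromosome 2, 18569943 to 18569947, plus strand), 188 in AT4G34035 (chromosome 4, 16304156 to 16304160, plus strand) and 135 in AT2G25400 (chromosome 2, 10813871 to 10813875, plus strand). Coordinates here and below are those of the deposited files on TAIR10. All 5 were among the 10 nuclear tRNA genes with the highest site scores.

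The 5 copies shared some peak positions and not others. Position 26 was marked in 5 of 5, with scores of 633 in AT2G36600, 502 in AT3G10035, 280 in AT2G45020, 122 in AT4G34035 and 16.9 in AT2G25400. Positions 33 to 36 were marked in each, and position 58 in each except AT3G10035. At 58 the scores were 586 in AT2G36600, 270 in AT2G45020, 120 in AT4G34035 and 74.2 in AT2G25400. Positions 32 and 37 were marked in 3 of 5 copies each, and position 48 in AT2G36600 alone, with a score of 627 that was above its peak at 58. The order of the copies was thus the same at 26, at 33 to 36 and, where marked, at 58. It differed at 32 and 37, where AT3G10035 (231 and 261.5) was above AT2G36600 (55.4 and 103). The plastid arginine tRNA gene with this anticodon, TRNR.1 (plastid genome, 9620 to 9624, plus strand), had its site at position 33 with a score of 71.4. Outside the anticodon loop its peaks were at 0, 16 and 20, with none called at 26 or 58.

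Tyrosine was represented by 1 nuclear gene, AT4G39195 (anticodon GTA), with both of its sites at the highest score in the series, a ceiling at which 4 sites were tied. The site at 58 in standard numbering (chromosome 4, 18255002 to 18255006, minus strand) and the site at 47 (18255013 to 18255017) each scored 708. They were 11 nt apart, and the gene had 6 called peaks, 5 of them in the sites. The sixth peak scored 379, at gene position 48 of this 84 nt gene, which has an intron near the anticodon. It had no site in the anticodon loop.

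Alanine tRNA genes with the anticodon TGC had peaks at few positions of the anticodon loop. Both nuclear targets had a site at gene position 37, next to the anticodon, with a score of 475 in AT3G63003 (chromosome 3, 23285627 to 23285631, minus strand) and 125 in AT3G62245 (chromosome 3, 23036914 to 23036918, plus strand). Within the anticodon loop peaks were called at 37 and 38 and at no other position. AT3G63003 also had a peak of 470 at position 58, nearly the score of its anticodon loop peak and outside any site. A further alanine tRNA gene, AT5G60963, had peaks at 37, 38, 58 and 59 with a highest score of 262, and yet no site.

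Threonine tRNA genes with the anticodon CGT had their sites in the T loop. All 3 nuclear targets had one at gene position 57, number 58, with scores of 161 in AT5G60966 (chromosome 5, 24531721 to 24531725, plus strand), 51.4 in AT2G03660 and 24.1 in AT2G03700. AT2G03660 had an additional site in the anticodon loop with a score of 38.5, and AT5G60966 had no called peak outside the T loop. The threonine tRNA gene AT5G63145 (anticodon TGT) differed, with sites in the variable region (63.5) and at number 32 in the anticodon loop (33.3).

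The glutamate and glutamine targets each had a site in the anticodon loop. AT3G50665 (anticodon TTC) had sites at position 34 with a score of 124 (chromosome 3, 18826071 to 18826075, plus strand) and at position 57 with 96.7. AT3G05525, with the same anticodon, had 1 site at position 34 with a score of 106 and T loop peaks of up to 80.7 with no site. The glutamine gene AT5G23665 (anticodon TTG; chromosome 5, 7981429 to 7981433, plus strand) scored 146 at position 34. The 3 other glutamine genes, with the anticodon CTG, had their sites at position 35 with scores of 24.9 to 83.6. In the plastid the glutamate gene TRNE had the highest score of its genome's tRNA genes, 163 at position 35, and the glutamine gene TRNQ had 94.9 at position 33.

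Both proline targets had their site in the anticodon loop, at the same gene position. AT1G70050 (anticodon AGG; chromosome 1, 26382188 to 26382192, minus strand) scored 185 and AT3G05755 (anticodon CGG) 95.9, both at gene position 36. AT1G70050 also had a T loop peak of 184 outside a site, and AT3G05755 had a further peak outside its site at position 9.

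Across anticodons, 14 had 2 or more nuclear target genes. In 11 of the 14 at least 2 genes had a site at the same gene position, and in 8 every gene did. In those 8 the score at the shared position differed between genes by 1.17 times (glutamate, anticodon TTC) to 6.68 times (threonine, anticodon CGT). Copies for one anticodon are near-identical in many cases, so reads of one copy can be placed on another, and how reads with several possible origins were treated is stated in none of the sources used here. Scores of single copies are therefore uncertain, and positions in copies are not independent.

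Serine and leucine tRNAs, which have a long variable arm, had 9 and 4 nuclear target genes, in that order. AT5G02725 (serine, anticodon CGA) had sites at gene position 51 in the variable arm, with a score of 66.3, and at 32 in the anticodon loop, with 61.6. With 11 called peaks it shared the highest peak count among nuclear tRNA genes with AT5G65015. The other serine gene of this anticodon had its site at position 51 too (26.3), as did AT1G17570 (anticodon AGA, 56.4), which had 10 called peaks. AT3G02715, with the anticodon AGA, had sites at 37 (16.9) and 48 (13.3). The 2 serine genes with the anticodon TGA shared position 34, with scores of 54.3 and 73.6. The 3 with the anticodon GCT had theirs in the anticodon loop, with scores of 17.1 to 65.0. Leucine genes had their 4 sites in the anticodon loop, from 9.90 in AT1G50070 (anticodon TAG) to 113.

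Other arginine tRNA genes scored lower than those with the anticodon TCT. The 3 with the anticodon ACG had 4 sites of 25.1 to 65.8, among them AT5G65015 with a site at 37 (41.3) and at 47 (25.1). The 2 with the anticodon CCT had 14.7 and 61.5. AT5G10525, the higher, had 10 called peaks, and its peak of 103 at position 36 lay just outside its site. Among target genes 10 of 65 (15.4%) had such a called peak above every site score, 7 nuclear and 3 plastid. The lowest nuclear site score, 3.96 in the asparagine gene AT1G26430 at position 36, was one of these, with a peak of 13.8 at position 48. The other nuclear genes with 10 called peaks were AT5G32017 (aspartate, site in the D loop, 22.1) and AT5G41675 (methionine, anticodon loop, 29.9).

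The remaining nuclear targets were lysine, valine, asparagine, glutamate and glycine tRNA genes. The lysine genes had 1 site each in the anticodon loop, with 80.6 for the anticodon CTT and 43.7 for the anticodon TTT. The valine genes, both with the anticodon TAC, had theirs in different places, the anticodon loop (24.9) and the T loop (17.6). Of the other asparagine genes one had its site at position 36 (58.5), as AT1G26430 did, and one in the variable region (20.9). The glutamate gene with the anticodon CTC scored 12.1 in the anticodon loop, and the glycine gene with the anticodon GCC scored 91.9 in the D loop.

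**Figure D3:**
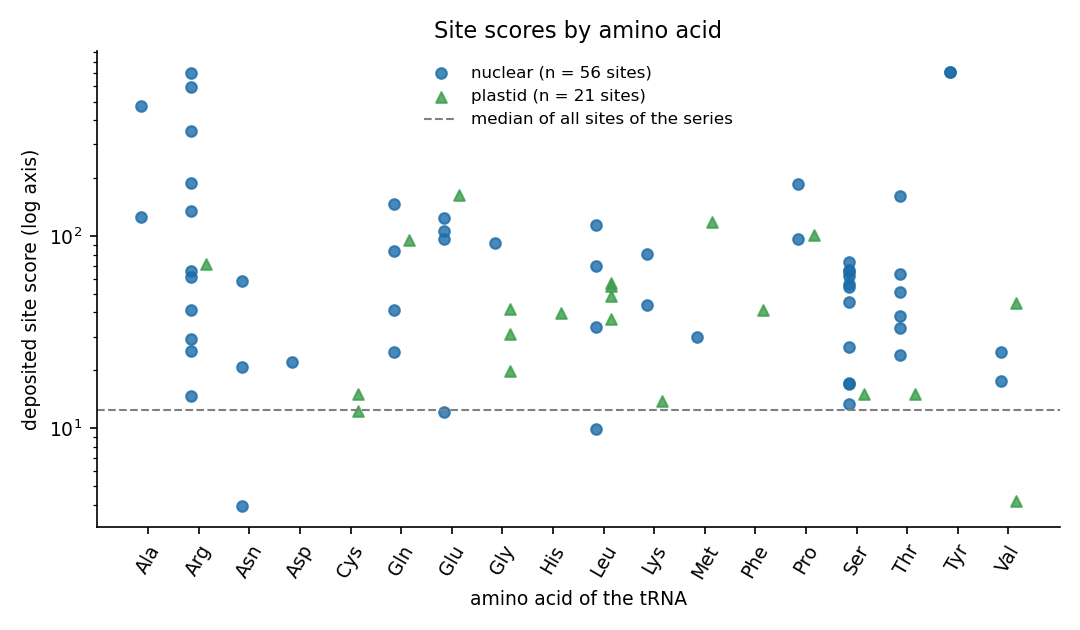
Deposited site score (vertical, log axis) for each tRNA site by amino acid (horizontal), circles nuclear (n = 56 sites) and triangles plastid (n = 21 sites); the dashed line is the median of all sites (12.5). Arginine sites run from 14.7 to 707 in nuclear genes, the 2 tyrosine sites coincide at 708, and 72 of the 77 tRNA sites lie above the line.

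Plastid tRNA genes differed in length, because several hold introns. The 6 with the highest scores were TRNE (163), TRNFM (118), TRNP (101), TRNQ (94.9), TRNR.1 (71.4) and TRNL.1 (57.01). TRNFM, the initiator methionine tRNA gene (plastid genome, 36759 to 36763, minus strand), had its site in the D loop at position 17, with peaks of 78.4, 118 and 96.3 at positions 16, 17 and 18, and its anticodon loop peaks reached 9.94. TRNP had a peak of 109 at position 38 that lay outside its site. TRNE had peaks at 16 and 18 of 101 and 74.3 beside the anticodon loop site.

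TRNL.1, a leucine tRNA gene with the anticodon TAA and 597 nt long, had 3 sites and 15 called peaks. Its sites lay in the D loop at position 16 (57.01), at 546 (36.8) and at 563 in the variable region (54.8), toward both ends of the gene, while the peaks called at 151 to 157 scored at most 4.18. TRNV.1 (valine, 673 nt, 15 called peaks) had a site near its 3' part at position 646 (45.1) and one in its interior at 357 with 4.18, the lowest plastid tRNA score. TRNG.1 (glycine, 786 nt) had 19 called peaks, the most of any tRNA gene, and 1 site at 747 in the anticodon loop (41.9). TRNK, a lysine tRNA gene of 2631 nt, had the lowest score of a plastid gene's highest site, 13.8 at position 33, followed by TRNS.3 with 15.0 at position 34. The positions of exons in these genes were not used here.

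TRNC and TRNG.2, short plastid genes, had a pair of sites each. TRNC (cysteine) had sites centred at 27 (15.0) and 43 (12.3) in standard numbers, on either side of the loop. TRNG.2 (glycine, anticodon GCC) had sites at 28 (19.9), before the loop, and at 35 (30.9), inside it. The remaining plastid targets were TRNL.3 at 48.9, TRNF at 41.3, TRNH at 39.9 and TRNT.1 at 15.1.

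Amino acids were covered unevenly in the nucleus. Sites were found in tRNA genes for 15 of 20 amino acids, and of 625 annotated nuclear tRNA genes 49 (7.84%, 5.98 to 10.2) had one. Arginine had 10 of 36 genes with a site (27.8%, 15.8 to 43.99), glutamine 4 of 17 (23.5%, 9.56 to 47.3), asparagine 3 of 16, threonine 4 of 24 and serine 9 of 64 (14.1%, 7.58 to 24.6). At the low end were proline with 2 of 66 (3.03%, 0.835 to 10.4), glycine with 1 of 41 and tyrosine with 1 of 75 (1.33%, 0.236 to 7.17). Cysteine (0 of 15), histidine (0 of 10), isoleucine (0 of 22), phenylalanine (0 of 16) and tryptophan (0 of 14) had no site in nuclear genes, counts that allow shares of up to 20%, 30%, 13.6%, 18.8% and 21.4% in that order. The plastid set held sites in genes for 14 amino acids, including cysteine, histidine and phenylalanine.

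Absence of a site was not absence of peaks. A further 26 nuclear tRNA genes had called peaks and no tRNA site, among them 4 cysteine, 4 alanine, 4 glycine, 2 isoleucine and 1 histidine genes. The highest single peaks were 262 for alanine, 134 for isoleucine, 120 for arginine and 117 for histidine, above the median tRNA site score of 51.4. Others of the 26 genes lay below that median. The highest peak of a gene ran down to 2.82, and that of the glycine genes reached 21.2 at most. Phenylalanine and tryptophan tRNA genes of the nucleus had no called peak. In the plastid 2 serine tRNA genes had called peaks and no tRNA site.

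**Figure D4:**
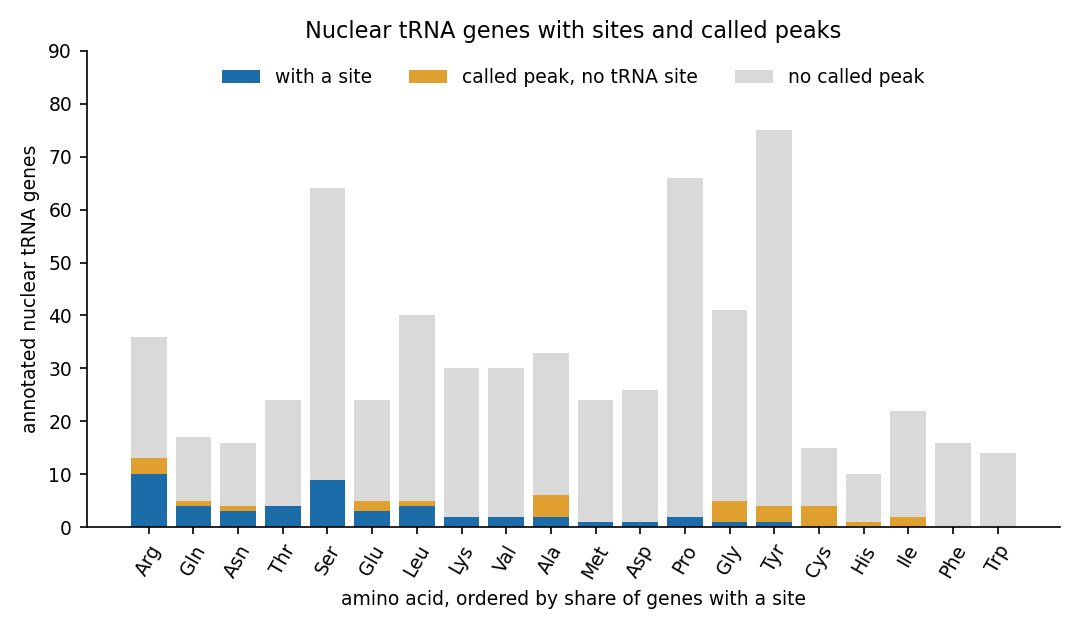
Number of annotated nuclear tRNA genes (vertical) for each amino acid (horizontal, ordered by the share of genes with a site), split into genes with a site, genes with a called peak and no tRNA site, and genes with no called peak. Arginine has 10 genes with a site of 36, while tyrosine and proline have 1 of 75 and 2 of 66.

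Copies of genes were looked at in both genomes. In the plastid genome, whose large inverted repeat holds some genes in a mirrored pair, the 14 spans of tRNA genes present in both repeats (7 pairs) had 0 called peaks. The spans of a pair are not separate observations, so no upper limit is given for this count. The 23 single-copy spans had 153 called peaks, in 18 spans, and 16 of them had a site. The same held for other gene types in the repeat, with 0 called peaks in the 6 ribosomal RNA and 10 protein-coding spans present in both, against 28 of 75 single-copy protein-coding spans with peaks. The single-copy plastid tRNA genes without a peak were those named trnD, trnY, trnM, trnW and one with no symbol.

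In the nucleus 146 tRNA genes had another gene for the same amino acid within 2000 nt, and 3 of them (2.05%, 0.701 to 5.87) had a site, against 46 of 479 (9.60%, 7.28 to 12.6) without such a neighbour. That difference rested on tyrosine, serine and proline, whose genes stand in tandem arrays on chromosome 1 of this species, with 0 of 124 (up to 2.42%) with a neighbour and 12 of 81 (14.8%, 8.68 to 24.1) without. For the other amino acids the counts were 3 of 22 (13.6%, 4.75 to 33.3) with a neighbour and 34 of 398 (8.54%, 6.18 to 11.7) without, in the other direction and with overlapping intervals. By chromosome, 10 of 238 genes had a site on chromosome 1, 6 of 95 on chromosome 2, 14 of 92 on chromosome 3, 8 of 77 on chromosome 4 and 11 of 123 on chromosome 5. The handling of reads that fit several copies was not tested, and the transcription of single tRNA genes was not measured, so these counts say which genes are in the list and not which tRNAs were free of TSN1.

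Messenger RNAs of tRNA-charging enzymes were looked up beside the tRNA genes. By the reference's gene names alone, 11 genes were named as tRNA synthetases or ligases, and none had a called peak or was a target. Of all annotated protein-coding genes 5.02% were targets and 7.41% had a called peak, so counts of 0 in lists this short lie near that background. AT5G12950, whose description in the deposited table names a proline-tRNA ligase, was a target with 2 or more sites, but descriptions were at hand for targets only, so it is not counted with the 11. Of 10 genes named for tRNA processing or modification 0 were targets and 0 had a called peak, which allows a share of up to 30%.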

How the data were processed

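Members and lists were chosen with earlier results of these data known, and so were the windows of standard tRNA numbers. The 3 replicates were sequenced as 50 nt single reads, per the labels' protocols, and processed with FastQC 0.11.5, STAR 2.7.3a, SAMtools, UMI-tools 1.0 and bedtools 2.27.1 on TAIR10, per the submitters' processing notes. The peak caller, the merging of peaks into sites and the handling of reads with several origins are not stated in the labels or headers. The score of each called peak and binding site, without stated unit, was deposited by the authors over all replicates, and a called peak's score was the lowest of the 4 scores written for it in 72935 of 72935 peaks. The count of binding sites per target gene is that of the authors' deposited table.

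Amino acid and anticodon came from the deposited descriptions and were given for 63 of 65 genes (26 nuclear and 15 plastid anticodons). The amino acid equalled that of the RefSeq gene table for 49 of 49 nuclear genes. That table's spans (TAIR10.1) served for positions within genes, counted from the 5' end to nucleotide 22 and otherwise from the 3' end (73), except that genes over 100 nt were counted from the 5' end to 38 and nuclear tyrosine genes to 34; the TRNK site, for one, was placed in the anticodon loop this way. In serine and leucine genes, gene positions 31 to 40 were taken as the anticodon loop. No tRNA sequence was aligned. Numbers from the D loop to the variable region therefore rest on gene length and can be shifted by a nucleotide where loops differ in length. No test was run: the files hold 1 group and no value per replicate. Shares have 95% Wilson intervals, and a count of 0 allows up to 3 counts. Counting used Python 3.11.15, pandas 2.3.3, scipy 1.17.1 and matplotlib 3.10.9. The interval functions were tested on simulated data and the numbering rule on set cases, while the counting itself was not tested on simulated data. Genes were named by rule: those with 2 or more sites, the 10 nuclear and 6 plastid genes with the highest site score, the 2 of each with the lowest, and the 3 of each with the most called peaks; further genes were named after their values were seen, as examples of a family or of peaks outside sites.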

Additional observations from a re-analysis of the deposited data

How the results depend on the processing

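Of 70 alternatives to 24 results, 63 stayed within the interval of the reported value or, for counts, within 1.5 times of it, and 7 moved. A reversal of direction was not among the outcomes scored. Some of the 63 left the data unchanged, such as leaving out genes over 100 nt for nuclear sites, so the tally overstates how much was varied. The share of tRNA sites among the highest scores was 50.6% in the top 5 percent and 81.8% in the top 25 percent, and 55.4% of tRNA genes were in the top 10 percent of targets by their highest site. It moved to 85.7% for nuclear sites in the top 25 percent and to 33.3% for plastid sites in the top 5 percent, as the threshold itself changes. With called peaks above the median peak score alone, 54.5% of those in tRNA targets and 52.9% of those in plastid targets fell inside a site. The anticodon loop shares, with alternatives added after seeing the data, stayed within their intervals. No paired analysis was possible because the files hold 1 group and no value per replicate, and leaving out each replicate could not be run for the same reason. Counting each anticodon once over annotated genes was not run, since the reference table gives no anticodon for genes outside the targets. Scores carry no depth, so none of these results could be weighed by coverage.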

Other observations

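Some sites that the authors did not label tRNA lay at, inside or just past tRNA genes. At the 5' end, centred on the last nucleotides before the gene, there were 3 nuclear and 4 plastid sites, all labelled intergenic. The 3 nuclear genes were all glutamate tRNA genes, with scores of 126 at AT2G38030, 55.5 at AT3G51135 and 16.2 at AT4G18725. The 4 plastid sites lay at trnE (131), trnL (41.7), trnH (21.5) and trnS (9.01). Glutamate tRNA genes thus held the highest of these in both genomes. Inside 2 plastid serine tRNA spans that were not typed as tRNA by the authors' table, 4 intergenic-labelled sites scored 12.3 to 29.6. A site with no gene type lay inside trnK at position 2566, with a score of 10.9.

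Glycine tRNA genes of the nucleus had sites at and beyond their 3' ends. At the 3' end there were 3 sites, with scores of 16.1 at AT1G06860, 6.43 at AT1G06880 and 34.4 at AT2G30450. Downstream of 4 glycine tRNA genes, 5 sites labelled snoRNA lay 22 to 49 nt past the gene end, with scores of 8.58 to 29.8. Plants are known to transcribe some glycine tRNA genes together with a snoRNA gene as 1 precursor. The single glycine tRNA gene among the nuclear targets, AT2G30180, had its site in the D loop with a score of 91.9. These genes were named after their values were seen.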
